A study of Mus musculus with 17 samples.

Results

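The mouse Hox genes were read in 17 single whole embryos: 38 protein-coding Hox genes of the 41709 gene rows of the table, taken by their symbols (cluster letter and paralogue number). They lie in 4 clusters, Hoxa on chromosome 6 with 10 of these genes, Hoxb on chromosome 11 with 10, Hoxc on chromosome 15 with 9 and Hoxd on chromosome 2 with 9. All embryos were C57BL/6J. At E9.5 there were 4 embryos with a CS and an INDEL allele of Disp1 (Disp1_CS_INDEL), from Disp1 CS/+ females crossed with Disp1 INDEL/+ males, and 4 wild-type embryos (Disp1_WT). At E8.5 there were 5 embryos with m1J on both copies of Myo10 (Myo10_m1J), from parents heterozygous for it, and 4 wild-type embryos (Myo10_WT). Disp1 encodes Dispatched, which releases Hedgehog ligands from the cells that make them, and Myo10 encodes myosin X, a motor of filopodia. The labels do not tell which embryos shared a litter. In a whole embryo, fewer cells of a type and less RNA per cell cannot be told apart.

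Hox genes encode homeodomain transcription factors that give cells along the head-to-tail axis their positional identity. Within a cluster the genes are opened in order, from paralogue group 1, which acts in the hindbrain, to paralogue group 13, which acts in the tail, hindgut and distal limb, so that genes with higher numbers come on later and nearer the tail. This match between gene order, time and place is called colinearity. Cdx proteins and retinoic acid help to open the clusters, Polycomb proteins keep closed genes silent, and Hox proteins bind DNA together with cofactors of the Pbx, Meis and Pknox families.

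Values are TPM (a transcript abundance per length that sums to the same total in each library), so levels can be set side by side between genes, while read depth is unknown. Disp1 averaged 14.3 ± 1.98 TPM in Disp1_CS_INDEL and 17.5 ± 1.74 TPM in Disp1_WT (SD, n = 4 each), and Myo10 averaged 3.61 ± 0.885 TPM in Myo10_m1J (SD, n = 5) and 25.8 ± 6.02 TPM in Myo10_WT (SD, n = 4). The libraries of the experiments differed in makeup: the structural RNAs 7SL, 7SK, RNase MRP RNA and RNase P RNA took 0.00524 to 0.0132% of TPM at E9.5 and 29.7 to 44.5% at E8.5. Age, experiment and this library makeup cannot be told apart in any comparison of E9.5 with E8.5. At E9.5, Disp1_CS_INDEL replicate 1 and Disp1_WT replicate 3 stood apart from the other 6 embryos by low levels of posterior Hox RNA. They were also low in most of the tail bud genes listed below, and the differences were not ranked over all genes. The Disp1 comparison is given with and without this pair. Group means and SDs include it. Of the comparison of wild types, only some results are also given without Disp1_WT replicate 3. Of the members, 9 share exon bases with another gene on the same strand and 9 with an antisense gene in the GENCODE M21 annotation. The library kit does not mark strand, so reads of such overlapping genes (among them Hoxa11 with Hoxa11os and Hoxc10 with Hoxc5) cannot be told apart with certainty.

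Promoter sequences are shown for genes on which the results turn: Hoxd13 and Hoxd12 at the tail end of Hoxd, Hoxd1 at its head end, Hoxb8 from the middle of Hoxb, and Hoxb1 at the head end of Hoxb. Each is the 250 bases before the gene start, plus strand, from RefSeq on GRCm38.p6. Capitals mark, on either strand, TTTAT (the core of sites bound by Cdx and posterior Hox proteins) and TGATNNAT (a joint Pbx and Hox site).
Hoxd13: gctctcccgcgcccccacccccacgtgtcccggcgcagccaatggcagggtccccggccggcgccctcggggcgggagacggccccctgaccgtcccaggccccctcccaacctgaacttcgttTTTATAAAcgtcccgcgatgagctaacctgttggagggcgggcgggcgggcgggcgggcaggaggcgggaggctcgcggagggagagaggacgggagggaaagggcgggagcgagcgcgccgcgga
Hoxd12: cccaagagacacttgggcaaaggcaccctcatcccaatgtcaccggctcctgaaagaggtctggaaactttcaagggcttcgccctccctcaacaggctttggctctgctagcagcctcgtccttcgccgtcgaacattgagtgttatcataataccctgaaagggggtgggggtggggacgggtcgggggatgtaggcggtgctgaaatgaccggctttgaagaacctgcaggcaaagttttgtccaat
Hoxb8: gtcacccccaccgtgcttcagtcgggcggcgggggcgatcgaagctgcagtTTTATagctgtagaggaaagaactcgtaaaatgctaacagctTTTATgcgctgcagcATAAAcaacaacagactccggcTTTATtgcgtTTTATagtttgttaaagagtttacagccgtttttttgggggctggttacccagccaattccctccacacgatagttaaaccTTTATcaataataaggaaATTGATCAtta
Hoxb1: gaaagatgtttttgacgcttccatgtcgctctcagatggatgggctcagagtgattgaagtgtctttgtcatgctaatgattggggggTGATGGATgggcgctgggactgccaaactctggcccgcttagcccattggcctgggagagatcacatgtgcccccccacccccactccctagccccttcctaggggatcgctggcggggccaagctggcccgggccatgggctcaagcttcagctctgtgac
Hoxd1: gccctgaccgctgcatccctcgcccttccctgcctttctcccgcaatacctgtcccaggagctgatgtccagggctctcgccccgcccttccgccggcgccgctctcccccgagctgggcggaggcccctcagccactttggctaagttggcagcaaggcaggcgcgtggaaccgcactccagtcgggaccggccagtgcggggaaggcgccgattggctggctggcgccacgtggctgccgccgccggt
They lie at chr2:74667975-74668224 for Hoxd13, chr2:74674763-74675012 for Hoxd12, chr11:96281655-96281904 for Hoxb8, chr11:96365508-96365757 for Hoxb1 and chr2:74762730-74762979 for Hoxd1. The Hoxb8 window held 6 TTTAT matches and 1 TGATNNAT match, the last 11 bases before the gene start. The Hoxd13 window held 2 TTTAT matches, which overlap each other on opposite strands 126 and 123 bases before the start. The Hoxb1 window held 1 TGATNNAT match, 162 bases before the start, and neither motif was in the Hoxd12 and Hoxd1 windows. The table held promoters for 22 of the 38 members. TTTAT stood in 9 of their 24 promoters (those of 8 of these 22 members) and in 37.3% of all 32851 promoters of that length. TGATNNAT stood in 4 of the 24 (Hoxa2, Hoxb1, Hoxb8 and Hoxd11) and in 7.68% of all promoters. A match is a run of letters, not a measured site.

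Hoxb1 to Hoxb9 were at 1 TPM or more in each of the 17 embryos, and across the 38 members mean levels tended to be lower at higher paralogue numbers in all 4 groups. Hoxb9, a gene of the thoracic and more posterior trunk, was the highest of the 38 in each of the 17 libraries, at 107 ± 4.86 TPM in Disp1_CS_INDEL and 104 ± 3.58 TPM in Disp1_WT (SD, n = 4 each), and at 40.7 ± 11.6 TPM in Myo10_m1J (SD, n = 5) and 40.0 ± 17.1 TPM in Myo10_WT (SD, n = 4). Its neighbour across a wide gap in the cluster, Hoxb13, stayed at or below 0.0899 TPM in each embryo. The summed TPM of all members was 625 ± 51.1 in Disp1_CS_INDEL and 611 ± 79.5 in Disp1_WT, and 192 ± 49.6 in Myo10_m1J and 206 ± 64.4 in Myo10_WT. The gap between the ages depends on the scaling. After median-of-ratios scaling of the libraries the mean sum was 463 in Disp1_CS_INDEL, 452 in Disp1_WT and 261 in Myo10_m1J. With structural, haemoglobin and mitochondrial RNAs left out it was 678 in Disp1_CS_INDEL, 328 in Myo10_m1J and 328 in Myo10_WT. The mean sum of Myo10_WT under the first rescaling and that of Disp1_WT under the second are not given here. The gap between the wild types can thus not be read under either. Across the 38 members of a group, the mean level (log2 of TPM + 1) and the paralogue number had a Spearman's rho of -0.54 in Disp1_CS_INDEL, -0.53 in Disp1_WT, -0.65 in Myo10_m1J and -0.69 in Myo10_WT. These rho values are descriptions across genes that share libraries, not tests. The fall was not steady: in Disp1_WT the highest means were those of Hoxb9, at 104 ± 3.58 TPM, and Hoxc10, at 37.4 ± 24.8 TPM (SD, n = 4).

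**Figure D1:**
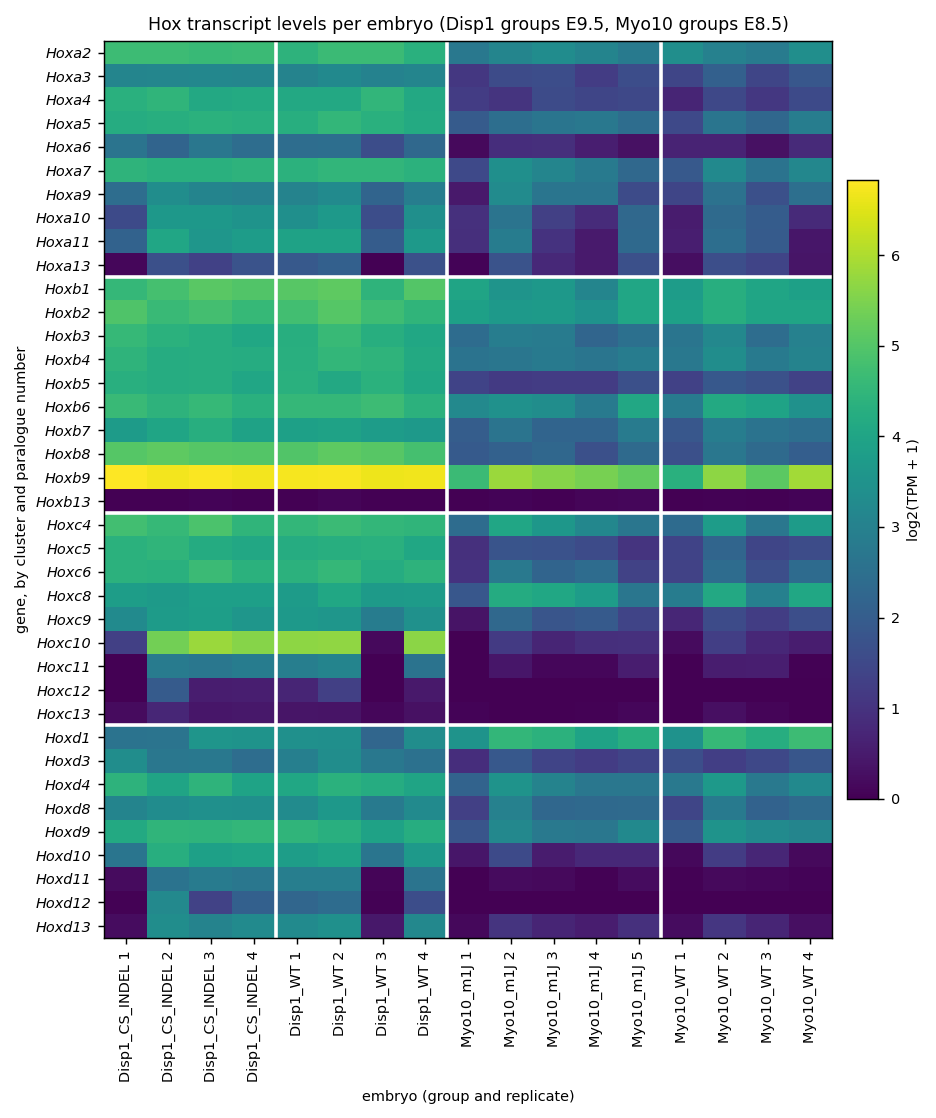
Level of each of the 38 Hox genes (rows, ordered by cluster and paralogue number) in each embryo (columns, by group and replicate), coloured by log2(TPM + 1). Hoxb9 is the brightest row in all 17 columns, and in Disp1_CS_INDEL replicate 1 and Disp1_WT replicate 3 the lower rows of Hoxa, Hoxc and Hoxd are dark.

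In Hoxa, Hoxc and Hoxd the last gene at 1 TPM or more differed between embryos, while in Hoxb it was Hoxb9 in all 17. The last genes at 1 TPM in every embryo were Hoxa11, Hoxb9, Hoxc10 and Hoxd10 in Disp1_CS_INDEL and Hoxa11, Hoxb9, Hoxc9 and Hoxd10 in Disp1_WT. They were Hoxa7, Hoxb9, Hoxc8 and Hoxd9 in Myo10_m1J and Hoxa9, Hoxb9, Hoxc8 and Hoxd9 in Myo10_WT. At E8.5 there were gaps before them. Hoxa6 was under 1 TPM in every E8.5 embryo, Hoxa4 in Myo10_WT replicate 1, and Hoxc5 and Hoxd3 in Myo10_m1J replicate 1. At 0.5 TPM the last genes became Hoxa10 in Myo10_m1J and Hoxc9 in Myo10_WT, and the others stayed. Since library makeup differed, a fixed TPM is not the same cut at both ages. Of the 38 members, 29 reached 1 TPM in every E9.5 embryo and 20 in every E8.5 embryo. Summed over the clusters, paralogue group 9 gave 138 ± 10.5 TPM in Disp1_WT and 52.2 ± 21.8 TPM in Myo10_WT, whereas group 10 gave 56.8 ± 32.9 TPM in Disp1_WT and 3.28 ± 2.85 TPM in Myo10_WT (SD, n = 4 each). Summed levels at E8.5 were thus low from group 10 on, and the wide SD of group 10 at E9.5 comes from 1 embryo, described next.

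At E9.5 the members of paralogue groups 10 to 13 were low in 1 embryo of each genotype. Hoxc10, a gene of the lumbosacral trunk and hindlimb, had 1.46, 40.8, 54.6 and 46.8 TPM in Disp1_CS_INDEL, and 49.9, 50.5, 0.134 and 48.9 TPM in Disp1_WT (replicates 1 to 4 in that order, here and below). Hoxd13, which patterns digits and the genital and hindgut region, had 0.165, 9.11, 7.37 and 8.59 TPM in Disp1_CS_INDEL, and 8.70, 9.84, 0.360 and 8.07 TPM in Disp1_WT. In both genes, replicate 1 of Disp1_CS_INDEL and replicate 3 of Disp1_WT were far below the other 6 embryos, which lay close together. Hoxd12, its partner in the distal limb, had 0.0269, 8.27, 1.53 and 3.25 TPM in Disp1_CS_INDEL, and 3.79, 4.37, 0.0252 and 2.08 TPM in Disp1_WT, with the same low embryos and a wider spread among the rest. Hoxa11, a gene of the forearm, lower leg and kidney region, had 3.40, 15.4, 11.1 and 12.6 TPM in Disp1_CS_INDEL, and 14.4, 14.2, 2.99 and 11.9 TPM in Disp1_WT, so that it was reduced but not lost in that pair. Hoxd10 had 5.29, 18.5, 13.7 and 14.7 TPM in Disp1_CS_INDEL, and 13.03, 14.6, 5.34 and 11.6 TPM in Disp1_WT, again lowest in the same pair.

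The difference was larger in groups 10 to 13 than in the trunk genes Hoxb8 and Hoxb9. Groups 10 to 13 held 2.28% of summed Hox TPM in Disp1_CS_INDEL replicate 1 and 2.17% in Disp1_WT replicate 3, and between 16.9 and 18.6% in the other 6 E9.5 embryos. Hoxb9 stood at 113, 103, 109 and 103 TPM in Disp1_CS_INDEL, and at 106, 107, 99.9 and 101 TPM in Disp1_WT, and Hoxb8, its neighbour towards the head, at 31.4, 34.5, 31.9 and 31.0 TPM in Disp1_CS_INDEL, and at 30.7, 34.2, 32.5 and 27.4 TPM in Disp1_WT. Neither gene set the pair apart. Hoxa9 and Hoxc9 lay between these cases: Hoxc9 had 8.55 TPM in Disp1_CS_INDEL replicate 1, against 11.1 to 13.1 TPM in the other 3 of its group, and 6.28 TPM in Disp1_WT replicate 3, against 10.02 to 11.7 TPM in the other 3 of its group. Among members at 1 TPM or more in the other 3 embryos of the group, 10 were at less than 50% of the next lowest embryo in Disp1_WT replicate 3, and 9 were in Disp1_CS_INDEL replicate 1. All of these were in groups 10 to 13 except Hoxd1 in Disp1_WT replicate 3, at 3.74 TPM against 9.21 to 9.68 TPM in the other 3. The pair was picked with these values known, and no share of all genes is given as a base for the counts. Smaller differences were not confined to the tail end. Hoxb1 had 22.5 TPM in Disp1_CS_INDEL replicate 1 and 20.6 TPM in Disp1_WT replicate 3, against 27.4 to 34.2 TPM in the other 6 embryos. Hoxd8 had 7.52 and 6.07 TPM in the pair against 8.61 to 11.4 TPM. Hoxd9 had 16.6 and 14.2 TPM in it against 18.3 to 22.1 TPM.

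**Figure D2:**
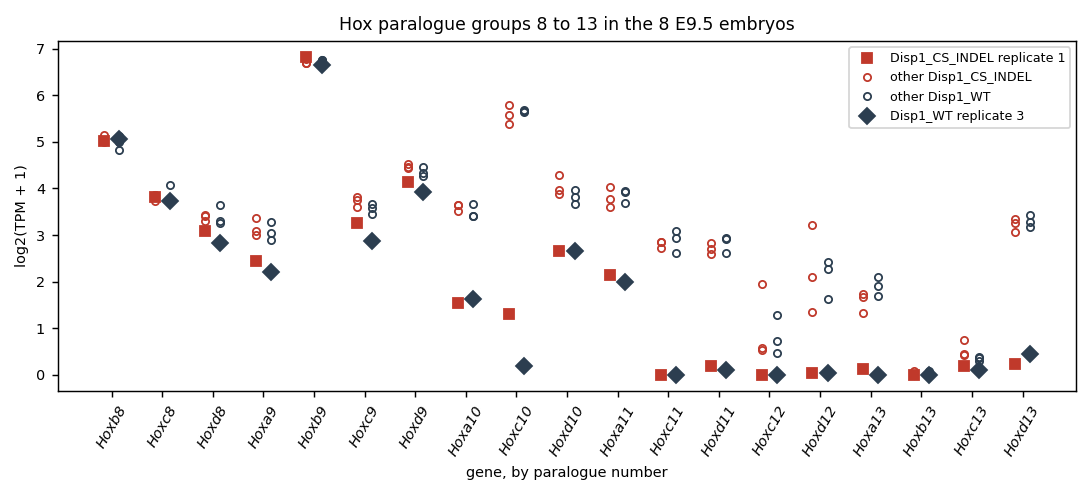
Level in log2(TPM + 1) of the Hox genes of paralogue groups 8 to 13 (ordered by paralogue number) in the 8 E9.5 embryos; red marks Disp1_CS_INDEL, dark blue Disp1_WT, and filled squares and diamonds the pair that stands apart. From Hoxa10 on the filled marks lie below all open marks for every gene except Hoxb13, which is at or near 0 in all, while for Hoxb8, Hoxc8 and Hoxb9 they lie among or near the open ones.

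In 10 of the 12 tail bud genes listed, both embryos of the same pair were below all other 6, and Fgf8 and Gdf11 were the exceptions. For Wnt3a the margin was narrow, at 13.2 TPM in both embryos against 13.6 to 15.3 TPM in the others. The pair was picked with its values known. The share of all genes that had this pair lowest is not given here, so the count has no base to be read against. T, the Brachyury factor of the tail bud, had 2.62 TPM in Disp1_CS_INDEL replicate 1 and 1.32 TPM in Disp1_WT replicate 3, and 10.4 to 15.7 TPM in the other 6 embryos. Cdx2 had 2.59 and 3.08 TPM in that pair and 9.51 to 23.1 TPM in the others, and Cdx4 had 0.243 and 0.0650 TPM in it and 8.36 to 25.0 TPM in the others. Cdx1, the third Cdx gene, did not set the pair apart, with 6.38 and 5.03 TPM in it and 5.90 to 12.8 TPM in the others. Tbx4, a T-box gene of the hindlimb bud and allantois, had 0.661 and 0.375 TPM in the pair and 6.28 to 11.6 TPM in the others. Evx1, the gene beyond Hoxa13 at the end of the Hoxa cluster, had 0.497 and 0.466 TPM in the pair and 3.77 to 7.54 TPM in the others. The list of 12 tail bud genes summed to 106 TPM in Disp1_CS_INDEL replicate 1 and to 94.5 TPM in Disp1_WT replicate 3, against 175 to 225 TPM in the other 6. Disp1_WT replicate 3 also held the yolk sac gene Apoa1 at 246 TPM and the decidual gene Prl8a2 at 551 TPM, where the other 7 E9.5 embryos had at most 12.1 and 19.2 TPM. The part of lost caudal tissue or of carried-over tissue in these values was not tested.

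Against the E8.5 wild types, the E9.5 wild types had more Hox RNA from nearly every position of the clusters. Of the 38 members 32 could be tested (TPM of at least 1 in at least 4 of the 8 libraries), and by limma on log2(TPM + 1) with Benjamini-Hochberg adjustment over all 13397 genes tested, 29 rose and 1 fell at adjusted p below 0.05. Over all genes 79.6% were called: 69.4% rose and 10.2% fell, and the median of all genes was 0.62, so that shift is the base against which the members are read: their median was 1.44. After median-of-ratios scaling of the libraries, which puts the median of all genes at 0.00, 20 of 32 members rose (62.5%) and 1 fell, where 36.1% of all genes rose and 36.4% fell. The 9 members no longer called were Hoxa9, Hoxa10, Hoxb1, Hoxb2, Hoxb6, Hoxc4, Hoxd4, Hoxd8 and Hoxd9. With the structural, haemoglobin and mitochondrial RNAs left out, 24 rose (75.0%) and 1 fell, where 42.5% of genes rose and 27.7% fell. All E9.5 wild types lay above all E8.5 wild types in 24 of the 32 tested members (75.0%) and in 66.1% of all genes tested, and below them in 1 member and in 7.96% of genes.

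Of the 7 members of the head-end groups 1 to 3, all tested, 6 rose and 1 fell, with a median of 1.35. Hoxb1, which specifies rhombomere 4 of the hindbrain and is also on in early posterior mesoderm, had 32.3, 34.2, 20.6 and 31.1 TPM in Disp1_WT, and 12.8, 18.4, 15.2 and 13.8 TPM in Myo10_WT. Its log2 difference was 0.92 (SE 0.16, adjusted p = 0.000296), and 0.26 after median-of-ratios scaling, which was not called (adjusted p = 0.181). Hoxb2, of the anterior hindbrain, had 26.3, 31.6, 25.3 and 21.3 TPM in Disp1_WT, and 13.8, 18.3, 14.9 and 14.8 TPM in Myo10_WT. Its difference of 0.72 was close to the median of all genes and came to 0.06 after that scaling. Hoxa2, of the second branchial arch, and Hoxb3, of the posterior hindbrain, rose by 1.36 and 1.49 and were still called after that scaling.

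Hoxd1 alone among the tested members fell. It had 9.68, 9.61, 3.74 and 9.21 TPM in Disp1_WT, and 10.2, 23.1, 18.0 and 24.6 TPM in Myo10_WT, so that each E9.5 wild type was below each E8.5 wild type, by a narrow margin at 10.2 TPM. The log2 difference was -1.14 (SE 0.31, adjusted p = 0.00509) as deposited, -1.76 after median-of-ratios scaling and -1.68 with the structural, haemoglobin and mitochondrial RNAs left out. Hoxd3 and Hoxd4, the next genes of the same cluster, rose by 1.35 and 1.05, Hoxd4 with no call after median-of-ratios scaling (adjusted p = 0.0691). At the other end of Hoxd, Hoxd10 rose by 2.96 (SE 0.31) and Hoxd13 rose by 2.02 (SE 0.56, adjusted p = 0.00635 by limma).

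Of the 15 members of the middle groups 4 to 8, all tested, 14 rose, with a median of 1.59. Hoxa6 was under 1 TPM in all 4 Myo10_WT embryos and passed the filter through the E9.5 embryos alone; without it 13 of 14 rose, with a median of 1.55. Hoxa4, of the cervical region, had 16.5, 16.4, 21.7 and 16.3 TPM in Disp1_WT, and 0.630, 1.79, 1.16 and 1.90 TPM in Myo10_WT, a log2 difference of 3.01 (SE 0.19, adjusted p = 1.09e-07). Hoxb8, of the trunk spinal cord, had 30.7, 34.2, 32.5 and 27.4 TPM in Disp1_WT, and 2.19, 5.52, 4.13 and 3.15 TPM in Myo10_WT, a difference of 2.81 (SE 0.19, adjusted p = 2.14e-07). The groups were far apart in both genes, and both stayed called after either rescaling. Hoxb5, Hoxc5 and Hoxc6, genes of the neck and upper trunk, rose by 2.66, 2.58 and 2.44. Hoxb6, by contrast, rose by 0.94, and by 0.29 with no call after median-of-ratios scaling (adjusted p = 0.355).

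Hoxc8, a gene of the thoracic trunk, was the member of groups 4 to 8 that was not called. It had 12.4, 15.9, 12.2 and 12.5 TPM in Disp1_WT, and 6.24, 16.3, 6.83 and 15.8 TPM in Myo10_WT. Replicates 2 and 4 of Myo10_WT were thus as high as the E9.5 embryos, and the other 2 were lower. The log2 difference was 0.32 (SE 0.28, adjusted p = 0.295), below the median of all genes, and it was -0.31 after median-of-ratios scaling and -0.18 with the structural, haemoglobin and mitochondrial RNAs left out. Its neighbours Hoxc6 and Hoxc9 rose by 2.44 and 2.10.

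In the tail-end groups 9 to 13, 10 of 16 members passed the filter on low values and 9 of these rose. The other 6, Hoxb13, Hoxc11, Hoxc12, Hoxc13, Hoxd11 and Hoxd12, reached 1 TPM in fewer than 4 of the 8 libraries. A gene of this class that is off at E8.5 could pass the filter only through all 4 E9.5 wild types, of which replicate 3 held little of these RNAs. Hoxc10 had 49.9, 50.5, 0.134 and 48.9 TPM in Disp1_WT, and 0.140, 1.39, 0.681 and 0.454 TPM in Myo10_WT. Its log2 difference was 3.61 (SE 1.04, adjusted p = 0.00768), and 4.98 without Disp1_WT replicate 3, the embryo in which it was as low as at E8.5. Hoxd12 and Hoxc12 were listed at 0 in all 9 E8.5 embryos, while the E9.5 values ran from 0.0252 to 8.27 TPM for Hoxd12 and from 0 to 2.89 TPM for Hoxc12. Hoxc11 and Hoxd11 reached at most 0.483 and 0.173 TPM at E8.5, and 5.09 to 7.51 and 5.07 to 6.62 TPM in the 6 E9.5 embryos outside the low pair.

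Hoxa13 was the tail-end gene that was tested and not called. It had 2.73, 3.26, 0 and 2.23 TPM in Disp1_WT, and 0.195, 2.14, 1.65 and 0.316 TPM in Myo10_WT. The log2 difference was 0.49 (SE 0.45, adjusted p = 0.330), and 0.97 without Disp1_WT replicate 3, which was called (adjusted p = 0.0150). With that replicate left out 29 of 31 tested members rose and 1 fell: Hoxa13 was called, and Hoxa6 no longer passed the filter on low values. The call of Hoxa9 (0.82, SE 0.29, adjusted p = 0.0221) was lost without Disp1_WT replicate 1 (adjusted p = 0.0526), without Disp1_WT replicate 2 (adjusted p = 0.0617) and without Myo10_WT replicate 3 (adjusted p = 0.0671). It was also lost with no filter (adjusted p = 0.0576), in 1 fit of all 17 libraries (adjusted p = 0.105), with the structural, haemoglobin and mitochondrial RNAs left out (adjusted p = 0.285) and after median-of-ratios scaling (adjusted p = 0.454).

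**Figure D3:**
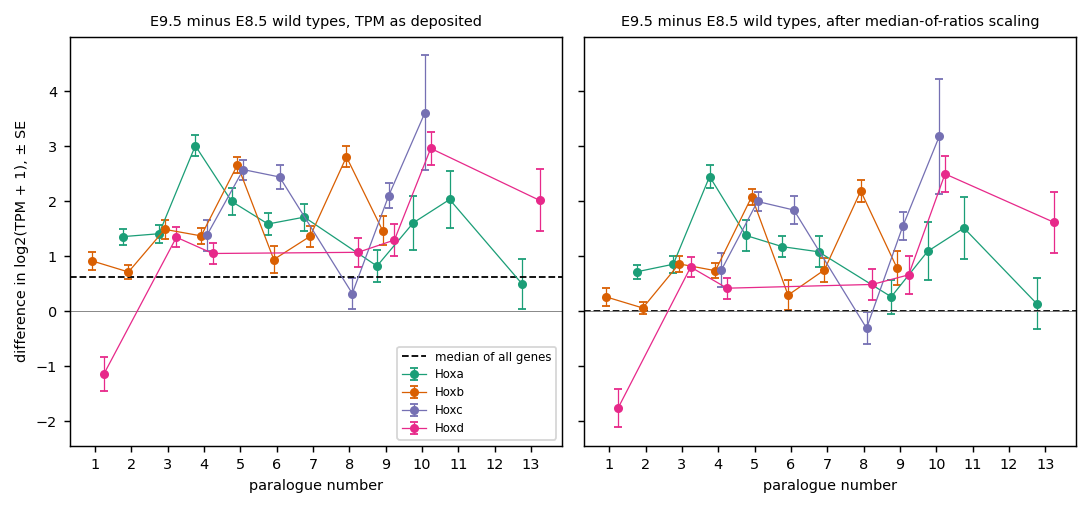
Difference in log2(TPM + 1) between Disp1_WT (E9.5) and Myo10_WT (E8.5), ± SE (n = 4 each), for the 32 tested Hox genes by paralogue number and cluster; left, TPM as deposited, right, after median-of-ratios scaling, with the median of all genes dashed. Hoxd1 lies below 0 in both panels, Hoxc10 is the highest point, and Hoxc8 lies above 0 on the left and below it on the right.

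Across the 32 tested members the stage difference and the paralogue number had a Pearson's r of 0.29 and a Spearman's rho of 0.30. By cluster, Pearson's r was 0.75 in Hoxd (n = 7), 0.48 in Hoxb (n = 9), 0.27 in Hoxc (n = 6) and -0.42 in Hoxa (n = 10), in which Hoxa4 was the highest and Hoxa13 the lowest. These values describe genes measured in the same 8 libraries and carry no test. The untested tail-end members Hoxb13, Hoxc11, Hoxc12, Hoxc13, Hoxd11 and Hoxd12 are left out of them. Disp1_WT replicate 3, low in posterior Hox RNA, is included. How far the correlations depend on the filter or on that embryo was not tested. The share of summed Hox TPM in groups 9 to 13 was 36.7 ± 6.86% in Disp1_WT and 27.9 ± 4.91% in Myo10_WT, and that in groups 1 to 3 was 19.5 ± 1.08% in Disp1_WT and 34.4 ± 6.44% in Myo10_WT (SD, n = 4 each). Groups 9 to 13 held 26.5% in Disp1_WT replicate 3 and 38.8 to 40.8% in the other Disp1_WT embryos.

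Genes that act on or with the Hox clusters did not all move with them between the wild types. The base for the counts is all genes tested: 69.4% rose and 10.2% fell as deposited. After median-of-ratios scaling 36.1% rose and 36.4% fell. Counts near these shares do not set a list apart. All 9 Hox cofactors of the Pbx, Meis and Pknox families rose, with a median of 1.35, and all 9 did so after either rescaling; Pbx2, the highest, rose by 1.53 (SE 0.078). The Cdx genes, activators of trunk and tail Hox genes, went the other way: Cdx1 fell by 2.98 and Cdx2 fell by 2.43, and Cdx4 (-1.88, adjusted p = 0.0658) was called lower only after the rescalings. Cdx2 had 20.3, 21.9, 3.08 and 19.1 TPM in Disp1_WT, and 25.9, 120, 109 and 92.4 TPM in Myo10_WT. Of 17 genes of retinoic acid synthesis, breakdown and reception 11 rose and 2 fell, near the shares of all genes. After median-of-ratios scaling 8 rose and 5 fell. Aldh1a2, the main retinoic acid synthesis enzyme of the trunk, differed by 0.11 (SE 0.29, adjusted p = 0.732), while Cyp26a1, the breakdown enzyme of the tail bud, fell by 0.92 and Cyp26b1, the breakdown enzyme of hindbrain and limb, rose by 3.44. Of 18 Polycomb and Trithorax genes 14 rose and 1 fell, and 10 rose and 4 fell after that scaling; Cbx7, a Polycomb reader subunit, fell by 1.59 and its relative Cbx2 rose by 1.05. Among hindbrain regulators, Egr2 (Krox20), an activator of Hoxa2 and Hoxb2, fell by 1.56, whereas both of these Hox genes rose as deposited.

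Noncoding genes inside the clusters showed both patterns. Of 9 tested, 5 rose and 1 fell, where 69.4% of all genes rose and 10.2% fell. After median-of-ratios scaling 3 rose and 2 fell, where 36.1% of all genes rose and 36.4% fell. Hoxb5os, antisense to Hoxb5, had 74.9, 75.0, 42.4 and 70.1 TPM in Disp1_WT, and 9.82, 19.1, 7.24 and 39.2 TPM in Myo10_WT, a rise of 1.99 (SE 0.41, adjusted p = 0.000963). Hoxaas3, antisense within Hoxa, had 9.06, 11.5, 2.83 and 11.6 TPM in Disp1_WT, and 10.7, 49.7, 38.7 and 52.1 TPM in Myo10_WT, and fell by 1.92 (SE 0.50, adjusted p = 0.00405). Since the library kit does not mark strand, part of such reads may belong to the overlapping Hox genes. The yolk sac list moved with the stage too: 9 of its 9 genes fell, with a median of -4.32, where 10.2% of all genes fell. Its part in the Hox values was not tested.

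In Disp1_CS_INDEL embryos no Hox gene was called against Disp1_WT. Of 35 members tested (all but Hoxb13, Hoxc12 and Hoxc13), 0 were called by limma, where 0.0301% of 13294 genes (4) were, 0.00752% higher and 0.0226% lower, and 0 had an unadjusted p below 0.05, against 301 of all genes. Differences were positive in 20 members and negative in 15, from -0.21 to 0.28, with a median of 0.04 against 0.01 for all genes. Hoxa2 had the smallest p, with 24.7, 24.7, 23.3 and 24.1 TPM in Disp1_CS_INDEL and 20.2, 24.1, 24.2 and 19.1 TPM in Disp1_WT. Its difference was 0.15 (SE 0.082, adjusted p = 1.00), and replicates 2 and 3 of Disp1_WT lay within the range of Disp1_CS_INDEL. Hoxb7, a trunk gene, had 12.5, 15.3, 18.3 and 14.4 TPM in Disp1_CS_INDEL and 13.8, 14.3, 12.8 and 11.7 TPM in Disp1_WT, a difference of 0.18 (SE 0.11). Hoxc4, of the cervical region, had 26.3, 22.8, 28.7 and 21.2 TPM in Disp1_CS_INDEL and 22.1, 24.1, 22.0 and 20.9 TPM in Disp1_WT, a difference of 0.14 (SE 0.093). In 0 of the 35 members did the groups separate fully, where 0.895% of genes were higher and 0.654% lower without overlap.

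The precision of that comparison depended on the position in the cluster. In Hoxb1 to Hoxb9 the SE of the log2 difference was between 0.049 and 0.16, while for Hoxc10 it was 1.34, since each genotype held 1 embryo in which this RNA was low. Without Disp1_CS_INDEL replicate 1 and Disp1_WT replicate 3, 0 of 35 members were called, 15 differences were positive and 20 negative, and the median was -0.00 against -0.02 for all genes. The smallest unadjusted p was then 0.0538, for Hoxb7. The share of Hox TPM in groups 9 to 13 was 37.3 ± 6.28% in Disp1_CS_INDEL and 36.7 ± 6.86% in Disp1_WT (SD, n = 4 each). It was 28.0% in Disp1_CS_INDEL replicate 1, 26.5% in Disp1_WT replicate 3 and 38.8 to 41.1% in the other E9.5 embryos.

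In Myo10_m1J embryos, too, no Hox gene was called against Myo10_WT. Of 28 members tested 0 were called by limma, where 0.00796% of 12560 genes (1) were, and 0 had an unadjusted p below 0.05, against 854 of all genes. The median was -0.12 against -0.16 for all genes, and 0.04 against 0.01 after median-of-ratios scaling. Leaving out 1 embryo moved the Hox median: it was -0.28 without Myo10_WT replicate 1, 0.02 without Myo10_WT replicate 2 and 0.03 without Myo10_m1J replicate 1, where the median of all genes was -0.12, -0.12 and -0.17. Hoxb2 had the smallest p, with 13.7, 12.01, 12.3, 10.2 and 15.4 TPM in Myo10_m1J, and 13.8, 18.3, 14.9 and 14.8 TPM in Myo10_WT. Its difference was -0.27 (SE 0.13, adjusted p = 0.473), and 1 mutant was above 3 of the wild types. Hoxb4 had 5.09, 5.42, 5.85, 5.35 and 6.28 TPM in Myo10_m1J, and 5.69, 9.13, 6.06 and 7.26 TPM in Myo10_WT, a difference of -0.27 (SE 0.14). Hoxb1 had 14.999, 10.6, 11.5, 7.69 and 15.5 TPM in Myo10_m1J, and 12.8, 18.4, 15.2 and 13.8 TPM in Myo10_WT, a difference of -0.32 (SE 0.18). In 0 of the 28 members did the groups separate fully, where 0.0318% of genes were higher and 0.963% lower without overlap. The 10 untested members were Hoxa6, Hoxb13, Hoxc10 to Hoxc13 and Hoxd10 to Hoxd13.

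The effects of the mutants on the Hox genes were not called as different from each other. In a limma fit of all 17 libraries, 0 of 35 members differed between the Disp1 and the Myo10 effect at adjusted p below 0.05, where 0.0216% of 13910 genes (3) did, 0.0144% higher and 0.00719% lower; 0 had an unadjusted p below 0.05, against 689 of all genes. The smallest p was that of Hoxa2, at 0.29 (SE 0.19, adjusted p = 0.586). None of the 16 lists of other genes held a called gene in either mutant comparison, the Cdx genes, Hox cofactors, retinoic acid and Polycomb lists included. A p that misses the threshold does not show that levels were equal.

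**Figure D4:**
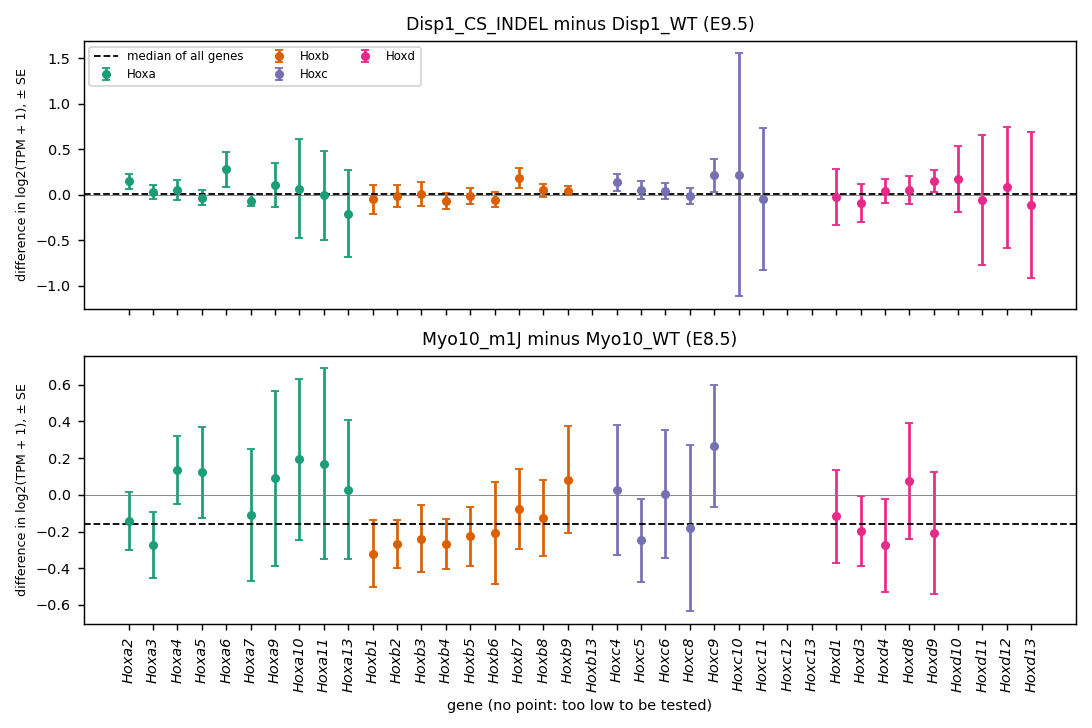
Difference in log2(TPM + 1), ± SE, of each tested Hox gene between Disp1_CS_INDEL and Disp1_WT (top, n = 4 each) and between Myo10_m1J and Myo10_WT (bottom, n = 5 and 4), with the median of all genes dashed. No gene passed the test in either panel, and the longest error bars are at Hoxc10 to Hoxc11 and Hoxd11 to Hoxd13 in the top panel.

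The E8.5 embryos varied widely within each genotype, and not in 1 order. Hoxc8 had 2.64, 17.3, 15.7, 12.8 and 5.41 TPM in Myo10_m1J, and 6.24, 16.3, 6.83 and 15.8 TPM in Myo10_WT. Hoxa11 had 0.893, 6.34, 1.01, 0.410 and 4.05 TPM in Myo10_m1J, and 0.498, 4.51, 2.91 and 0.332 TPM in Myo10_WT. Myo10_m1J replicate 5 and Myo10_WT replicate 3 were thus low in Hoxc8 and high in Hoxa11, and Myo10_m1J replicates 3 and 4 and Myo10_WT replicate 4 were the reverse. Hoxa10 and Hoxa13 had their 4 highest embryos in the same places as Hoxa11, namely Myo10_m1J replicates 2 and 5 and Myo10_WT replicates 2 and 3. In all, 7 members had these same 4 embryos on top (with them Hoxb6, Hoxb7, Hoxc11 and Hoxd9), and 8 members had Myo10_m1J replicates 2 and 3 and Myo10_WT replicates 2 and 4 on top (Hoxa7, Hoxb3, Hoxb9, Hoxc4, Hoxc5, Hoxc8, Hoxd1 and Hoxd4). These sets were read after the values were seen and carry no test.

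Genes that are no Hox genes stood beside both orders. Tbx4 had 0.0948, 29.9, 7.69, 2.49 and 20.8 TPM in Myo10_m1J, and 2.01, 33.8, 24.7 and 1.88 TPM in Myo10_WT, so its 4 highest embryos were those of Hoxa11. Hoxb5os had 5.71, 41.6, 32.2, 41.8 and 6.55 TPM in Myo10_m1J, and 9.82, 19.1, 7.24 and 39.2 TPM in Myo10_WT, and was low in the same embryos as Hoxc8 except for Myo10_WT replicate 2, which lay between. Myo10_m1J replicate 1 and Myo10_WT replicate 1 were the lowest of their groups for 25 and 29 of the 38 members. These counts have no base to be read against, as the share of all genes lowest in these embryos is not given. In Myo10_WT replicate 1, T was at 10.4 TPM and Cdx2 at 25.9 TPM, where the other 8 E8.5 embryos had 23.4 to 65.3 and 51.1 to 123 TPM, and the hindbrain gene Egr2 was at 9.48 TPM, where the others had 1.91 to 5.71 TPM. The part of age within the day, or of the tissue recovered, in these values was not tested.

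**Figure D5:**
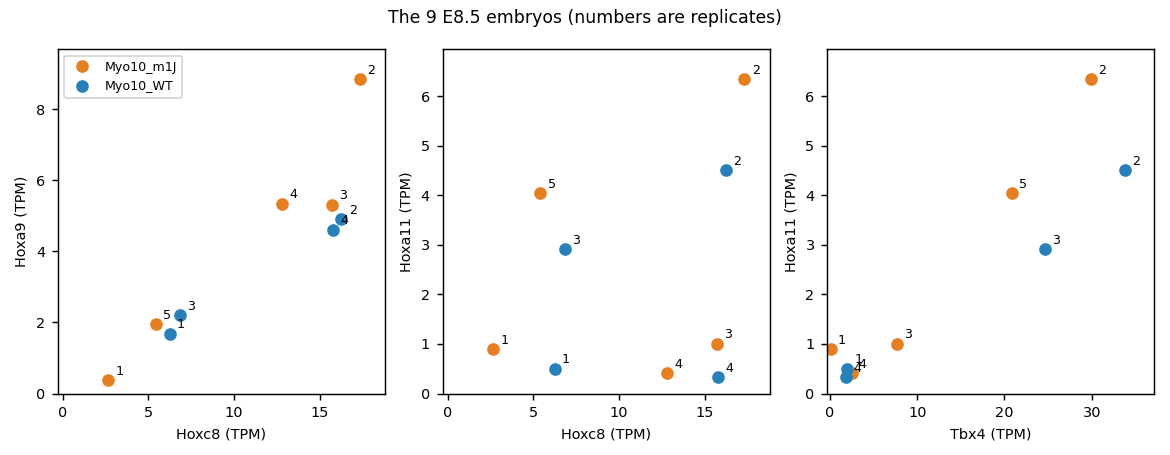
Levels in TPM of Hoxa9 against Hoxc8 (left), Hoxa11 against Hoxc8 (middle) and Hoxa11 against Tbx4 (right) in the 9 E8.5 embryos, orange for Myo10_m1J and blue for Myo10_WT, numbered by replicate. Replicates 5 of Myo10_m1J and 3 of Myo10_WT lie low in Hoxc8 and high in Hoxa11, and the 4 embryos highest in Tbx4 are the 4 highest in Hoxa11.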

How the data were processed

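RNA of 17 single whole embryos was taken with an RNeasy Micro kit, made into libraries with TruSeq RNA Sample Prep v2 and sequenced on a NovaSeq, per the labels' protocols. The authors deposited TPM for 41709 genes in 1 table; GRCm39 (mm39) is named in the submitters' processing notes, and what aligned and quantified the reads is not given in the sources used here. Each library sums to the same total and read depth is unknown, so no counting intervals are given.

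Groups were read from sample titles. The scale of all tests was log2(TPM + 1), on which changes of low genes come out too small. The test was limma 3.58.1 under R 4.3.3, run on genes that reached a TPM of 1 in 4 or more of the libraries compared (mean-variance trend, Benjamini-Hochberg adjustment over all genes tested, threshold 0.05); a gene rose or fell where it passed. Each mutant comparison and the wild-type comparison was fitted alone, and the difference of the mutant effects in 1 fit of 17 libraries. Nothing says which embryos shared a litter. The test was tested on simulated data. 39 rows fit the naming rule; 38 are described and 1 is not reported here. Members and the 16 lists of other genes were chosen with earlier results of these data known.

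Values per embryo are given for the 3 members with the smallest p in each mutant fit and in the difference of the effects, the highest member of each paralogue group, and the 3 called members with the largest stage difference each way (20 in all, not all printed); others, such as Hoxc8, Hoxa13 and the list genes, were picked with their values known. The results were recomputed after median-of-ratios scaling, after removal of structural, haemoglobin and mitochondrial RNAs, with 0.1 as pseudocount, unfiltered, with a mean TPM of 5 as the filter, without the trend, in a joint fit of all 17 embryos, with a replicate block, with detection at 0.5 TPM and with each library left out; the fits without a pair of E9.5 embryos were added after seeing the data. Promoters came from a RefSeq table on GRCm38.p6, matched by symbol.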

Additional observations from a re-analysis of the deposited data

Results flagged for a closer look

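A sample was singled out where its gap to the next exceeded the 95% critical value of Dixon's test, over 92 groups of values for the 20 members chosen by rule and the Hox summaries. Chance does so in about 1 of 20 groups, and 9 values did. Of these, 5 belong to Disp1_WT replicate 3 and 2 to Disp1_CS_INDEL replicate 1.

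In Disp1_WT replicate 3, Hoxc10 was at 0.134 TPM, where the next lowest of its group had 48.9 TPM, and Hoxd1 was at 3.74 TPM, where the next had 9.21 TPM. Hoxa4, a cervical gene, was the highest of its group there, at 21.7 TPM against 16.5 TPM in the next. Groups 9 to 13 held 26.5% of Hox TPM in that embryo, against 38.8% in the next, and 29 members reached 1 TPM, against 35. In Disp1_CS_INDEL replicate 1 these were 28.0%, against 39.2% in the next, and 30 members, against 35. Hoxd1 was at 5.12 TPM in that embryo and at 5.22 TPM in Disp1_CS_INDEL replicate 2, which kept its posterior Hox RNA.

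At E8.5, Hoxd10 was at 1.87 TPM in Myo10_m1J replicate 2, where the next highest of its group had 0.728 TPM. In Myo10_WT replicate 1, groups 9 to 13 held 20.6% of Hox TPM, against 29.9% in the next.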

How the results depend on the processing

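In both mutant comparisons and in their difference, 0 Hox members were called under any alternative run. In the wild-type comparison, between 25 and 29 members rose with each library left out in turn, and Hoxd1 fell in each case. Hoxc8 changed sign, to -0.31 after median-of-ratios scaling and to -0.18 with the structural, haemoglobin and mitochondrial RNAs left out. Over all genes, called genes there became 4784 higher and 4824 lower with that scaling, 5855 and 3821 with those RNAs left out, and 2139 lower with no filter. In the Disp1 comparison (1 gene higher, 3 lower) lower calls became 1 with no filter, 5 with median-of-ratios scaling, 1 in 1 fit of all libraries and 1 with the replicate block; higher calls became 0 at a mean TPM of at least 5, 2 with median-of-ratios scaling and 0 without the low pair. With each library left out there were 0 to 1 higher and 1 to 2 lower. In the Myo10 comparison (0 higher, 1 lower) no filter gave 2 lower and the libraries left out in turn 0 to 1 higher and 1 to 2 lower. For the difference of effects (2 higher, 1 lower) no filter gave 6 and 2, a mean TPM of at least 5 gave 1 higher, the fit without the low pair 1, and libraries left out in turn 1 to 3. The causes were not tested.

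Same-numbered embryos did not deviate together in every pair (correlations of their deviations from -0.29 to 0.46), so the numbers were not taken as pairs. With the replicate block the Myo10 fit called 1 gene higher and 45 lower, the wild-type comparison 9508 higher and 1462 lower, and the Hox calls stayed at 29 higher and 1 lower in the wild-type comparison and 0 in the mutants. Depth is unknown, and genes at 0 may be below detection. With 4 or 5 embryos a group, small differences may be missed.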
